A study of Mus musculus with 12 samples.

Results

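The mRNA levels of 10 chemokine ligand genes, Ccl2, Ccl3, Ccl4, Ccl5, Ccl6, Ccl7, Ccl9, Cxcl2, Cxcl10 and Cxcl16, were examined in 3 mouse cell lines. The genes were taken by name as chemokines that microglia are known to make, out of 25128 genes and unnamed targets on the array, and each was measured by 1 target with 3 probes. BV2 cells are mouse microglia immortalized with a retrovirus, N18 cells come from a mouse neuroblastoma, and AtT20 cells from a mouse pituitary tumor of corticotrophs. For each line 4 plates were grown to confluence in DMEM with serum and antibiotics and extracted separately, so that the 12 arrays hold 1 plate each. No plate received any treatment, and the values are therefore basal levels, with no stimulated BV2 sample beside them. The authors kept the BV2 cells under conditions meant to favour a resting state, which is not stated for the other lines. Each line is a single immortalized culture, and p values measure the spread between plates of that culture only.

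The arrays were checked against marker genes of each line. Of 13 microglia and macrophage markers, 10 were above the detection threshold in BV2 cells, 3 in N18 cells and 2 on the plates labelled AtT20, and their mean level on a plate was 2.58 to 3.12, 0.33 to 0.42 and 0.00 to 0.15, respectively. Aif1, Cx3cr1 and P2ry12, which mark microglia in the brain, were below the threshold in BV2 cells. As a background, 53.3% of all genes and targets were above it in BV2 cells, 55.4% in N18 cells and 35.0% on the plates labelled AtT20. Of 14 neuroblastoma markers 13 were above the threshold in N18 cells, 7 on the plates labelled AtT20 and 6 in BV2 cells. Of 8 corticotroph markers 1 was above it on the plates labelled AtT20, 4 in N18 cells and 2 in BV2 cells, and Pomc, the precursor of corticotropin, was below it there, with a level of 0.29 ± 0.26 (SD, n = 4). Those 4 plates are accordingly called by their label below. Their deposited values were also compressed, with an interquartile range over the 72000 probes of 0.38 to 0.78 on the log2 scale, against 1.28 to 1.73 on the BV2 arrays and 1.91 to 2.21 on the N18 arrays. How the arrays were laid out on slides is not given in the sources used here, so that slide and line cannot be told apart.

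Chemokines are small secreted proteins that bind G protein coupled receptors and direct the movement of leukocytes along their concentration gradient. The CC ligands mainly attract monocytes, T cells and other mononuclear cells, whereas CXC ligands of the Cxcl2 type attract neutrophils and Cxcl10 attracts activated T cells. Microglia are a main source of these ligands in the brain, and many of the genes are transcribed at low levels until NF-kB or interferon signaling is activated.

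The genes lie in a few clusters. In the gene order of GRCm38.p6, Ccl2 and Ccl7 were neighbours among the protein coding genes of chromosome 11, and Ccl5, Ccl9, Ccl6, Ccl3 and Ccl4 followed each other without another protein coding gene between them on the same chromosome. Cxcl16 lies elsewhere on chromosome 11, and Cxcl2 and Cxcl10 lie on chromosome 5. Promoter sequences from RefSeq (GRCm38.p6) were matched for 5 of the 10 genes. They are shown here because they include 3 genes that were far higher in BV2 cells than in N18 cells (Ccl3, Cxcl2 and Cxcl10) and 2 for which the difference was small (Ccl6 and Ccl9). Each line gives the 250 bases before the transcription start, 5′ to 3′, with capitals marking matches to the NF-kB consensus on either strand.
Cxcl2, chr5:90903649-90903898, plus strand: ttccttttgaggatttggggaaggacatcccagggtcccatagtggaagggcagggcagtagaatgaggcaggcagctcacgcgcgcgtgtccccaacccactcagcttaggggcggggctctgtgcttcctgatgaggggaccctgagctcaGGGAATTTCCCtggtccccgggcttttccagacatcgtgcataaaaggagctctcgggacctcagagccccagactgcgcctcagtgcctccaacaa
Cxcl10, chr5:92348890-92349139, minus strand: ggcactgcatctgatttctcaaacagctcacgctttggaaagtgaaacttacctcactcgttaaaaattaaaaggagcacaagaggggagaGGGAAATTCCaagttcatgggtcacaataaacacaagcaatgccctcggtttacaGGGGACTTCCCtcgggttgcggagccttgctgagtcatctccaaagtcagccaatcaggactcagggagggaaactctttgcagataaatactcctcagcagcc
Ccl3, chr11:83649379-83649628, minus strand: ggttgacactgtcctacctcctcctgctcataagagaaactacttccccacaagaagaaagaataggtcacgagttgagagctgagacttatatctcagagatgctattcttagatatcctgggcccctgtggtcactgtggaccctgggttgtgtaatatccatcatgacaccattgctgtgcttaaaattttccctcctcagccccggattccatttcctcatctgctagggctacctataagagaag
Ccl9, chr11:83578637-83578886, minus strand: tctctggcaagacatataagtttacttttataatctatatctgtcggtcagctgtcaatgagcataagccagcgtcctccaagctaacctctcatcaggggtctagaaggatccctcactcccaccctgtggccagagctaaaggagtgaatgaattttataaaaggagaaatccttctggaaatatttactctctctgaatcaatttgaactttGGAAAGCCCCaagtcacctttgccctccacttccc
Ccl6, chr11:83593088-83593337, minus strand: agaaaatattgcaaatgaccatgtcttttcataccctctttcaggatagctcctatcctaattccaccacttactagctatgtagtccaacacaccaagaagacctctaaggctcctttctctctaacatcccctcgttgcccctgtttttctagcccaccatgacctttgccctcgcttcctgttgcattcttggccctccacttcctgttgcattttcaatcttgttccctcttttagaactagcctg

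Positions are counted back from the start, the base before it being position -1. The NF-kB consensus was found in the Cxcl2 window at -97 to -87, as overlapping matches on the 2 strands, and in the Cxcl10 window at -159 to -150 and at -104 to -94. It was also found in the Ccl9 window, at -35 to -26, and its letters were not in the windows of Ccl3 and Ccl6. Of all 32851 promoter windows of this length, 7.3% held the consensus. The consensus of the interferon-stimulated response element was found, among these 5 windows, in that of Cxcl10 at -213 to -204 (3.0% of all windows). The AP-1 motif TGANTCA was found in the Cxcl10 window at -74 to -68 and in the Ccl9 window at -53 to -47 (6.7% of all windows). GAGGAA, the core of PU.1 sites, was found in the Ccl3 window at -33 to -28 (23.3% of all windows), and TATAAA was found 3 times in the Ccl9 window, 2 of them overlapping on opposite strands (12.4% of all windows held it). All motifs were searched on both strands. The matches describe letters and carry no measurement of binding. Among these 5 windows that of Ccl9 held the NF-kB consensus and that of Ccl3 did not. Bases further upstream and the ligands without a matched promoter were not searched. A relation of the consensus to the differences between lines was not tested.

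Levels and differences are given on separate scales. The level is the averaged probe signal of a gene, on the log2 scale, above the average of 10 seminal proteins of the same plate, which are secreted by glands of the male tract and serve as a background. A gene is above the detection threshold when its mean level over 4 plates exceeds 2 SD of those proteins. That threshold was 0.56 ± 0.15 in BV2 cells, 0.74 ± 0.10 in N18 cells and 0.37 ± 0.11 on the plates labelled AtT20 (SD over plates, n = 4). Differences between lines are given on the log2 scale after quantile normalization of the 12 arrays. Since each gene has probes of its own, levels were not compared between genes, and only differences between lines were.

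By level, all 10 ligands were above the detection threshold in BV2 cells, where 53.3% of all genes and targets were. In N18 cells 3 of the 10 were above it (Ccl2, Ccl3 and Cxcl16) against 55.4% of all genes, and on the plates labelled AtT20 4 of the 10 (Ccl2, Ccl4, Ccl5 and Ccl6) against 35.0%. For 7 ligands, namely Ccl2, Ccl3, Ccl4, Ccl5, Ccl7, Cxcl2 and Cxcl10, the BV2 call held under each of the alternatives run and on all 4 plates. Ccl6 and Ccl9 exceeded their own plate's threshold on 3 of the 4 BV2 plates only. Of the 30 single probes 25 were above the same threshold in BV2 cells, 9 in N18 cells and 7 on the plates labelled AtT20. That threshold comes from seminal proteins averaged over their probes. The share of all single probes above it was not counted, so that these counts have no background. In RNA from whole cultures, fewer cells that make a message and less message per cell cannot be told apart.

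Between lines, 9 of the 10 ligands were higher in BV2 than in N18 cells at an adjusted p under 0.05 (limma, over all 25128 genes and targets), and none was lower, with backgrounds of 21.9% and 19.0% of all genes. For the same 9 the 4 BV2 plates lay above the 4 N18 plates without overlap, as they did for 31.9% of all genes. The median difference of the 10 was 3.42 on the log2 scale, against 0.06 for all genes. Against the plates labelled AtT20, 8 ligands were higher (26.6% of all genes) and 1, Ccl6, was lower (47.0%), with a median of 2.54 against -0.23 for all genes, where another scaling turned the direction of Ccl6 (0.54 relative to the seminal proteins) and Ccl9 (-0.52 without normalization). The plates did not overlap for the 8 that were higher (22.9% of all genes) and overlapped for Ccl6 (39.7% of all genes were lower without overlap). In each comparison 7 ligands were higher by over 1 on the log2 scale, where 4.35% and 12.5% of all genes were. Both comparisons use the same BV2 plates.

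**Figure D1:**
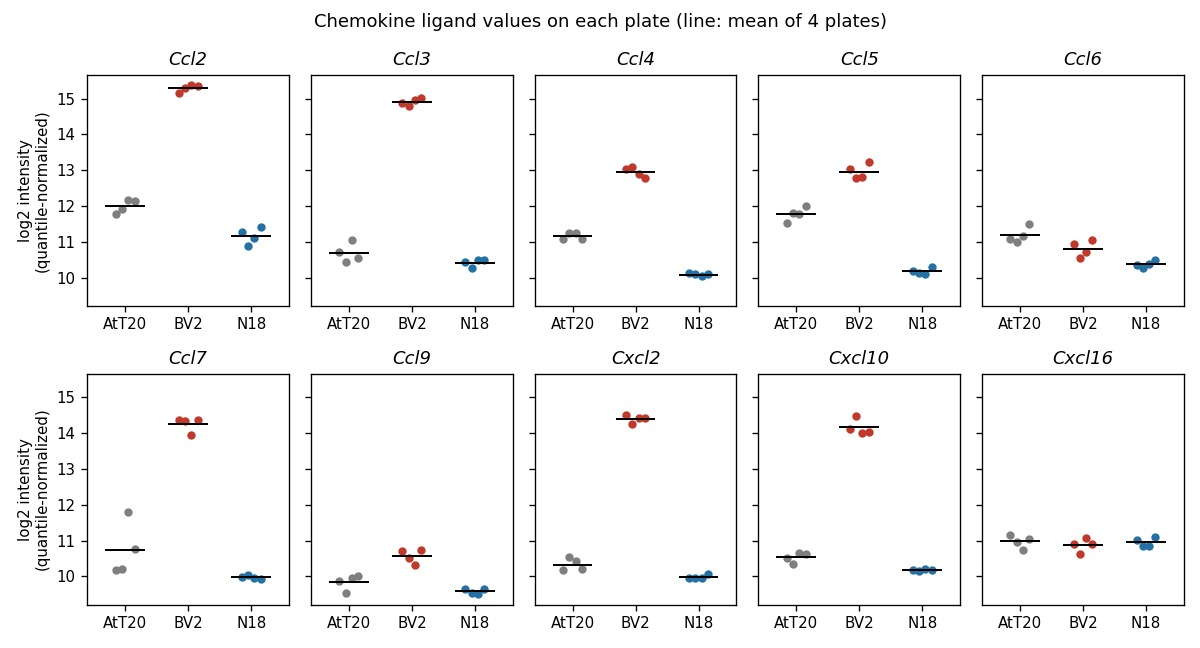
Each panel shows 1 ligand gene, with its log2 intensity after quantile normalization on the vertical axis and 1 point per plate for the plates labelled AtT20, BV2 and N18 (line, mean of 4 plates). For Ccl2, Ccl3, Ccl4, Ccl5, Ccl7, Ccl9, Cxcl2 and Cxcl10 every BV2 plate was above every plate of the other lines, whereas the 3 groups of Cxcl16 overlapped between 10.63 and 11.16.

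Ccl2 and Ccl7 are the monocyte chemoattractants that act on CCR2. The Ccl2 values were 15.15, 15.30, 15.37 and 15.34 on BV2 plates, 11.27, 10.89, 11.10 and 11.42 on the N18 plates, and 11.77, 11.92, 12.17 and 12.14 on the plates labelled AtT20. The 3 groups did not overlap, and the order was BV2, then the plates labelled AtT20, then N18. Ccl2 was 17.4-fold higher in BV2 than in N18 cells (log2 difference 4.12, SE 0.13, adjusted p = 3.49e-13) and 9.8-fold higher than on the plates labelled AtT20 (3.29, SE 0.13, adjusted p = 2.79e-12), where the log2 difference ranged from 2.93 with the median of the probes to 4.47 relative to the seminal proteins. It was the only ligand above the threshold in all 3 lines, with levels of 5.35 ± 0.30 in BV2 cells, 1.80 ± 0.25 in N18 cells and 0.88 ± 0.28 on the plates labelled AtT20 (SD, n = 4). Its probes differed in this respect. Probe 2 was below the threshold in N18 cells (level 0.35) and on the plates labelled AtT20 (-0.23), while probes 1 and 3 were above it in both, at 1.06 and 2.82 in N18 cells and at 1.23 and 1.19 on the plates labelled AtT20. On probe 2 BV2 exceeded N18 by 5.10 and the plates labelled AtT20 by 5.50, which were the largest differences of the 3 probes. The order of the other 2 lines is not settled by these data, because Ccl2 was lower in N18 cells than on the plates labelled AtT20 after quantile normalization (-0.83, adjusted p = 2.59e-05) and higher relative to the seminal proteins (0.92).

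Ccl7 was read at 9.99, 10.05, 9.96 and 9.93 on the N18 plates and at 14.36, 14.35, 13.96 and 14.36 on those of BV2. On the plates labelled AtT20 the values were 10.17, 10.20, 11.79 and 10.78, the widest spread of any ligand in that group. BV2 plates were above all others, and plate 3 was the lowest BV2 plate. With a level of 4.37 ± 0.48 in BV2 cells (SD, n = 4) and levels of 0.02 in N18 cells and 0.12 on the plates labelled AtT20, both below the threshold, Ccl7 has a fold only as a bound. It was at least 11.9-fold higher than in N18 cells (log2 difference 4.28, SE 0.26, adjusted p = 8.63e-10) and at least 6.2-fold higher than on the plates labelled AtT20 (3.53, SE 0.26, adjusted p = 3.39e-09). Such a bound sets the BV2 mean of the gene against the threshold of the dim line. It is the smallest over 3 scales (quantile normalization, no normalization and relative to the seminal proteins) and 3 summaries of the probes (linear mean, mean of log2 values and median), the last 2 of which were added after seeing the data, and it does not hold for single probes. The 3 probes of Ccl7 differed little, with BV2 above N18 by 4.14, 4.26 and 4.41.

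Ccl3, Ccl4 and Ccl5 are inflammatory ligands that attract monocytes and T cells, and Ccl3 and Ccl5 bind CCR1. The values of Ccl3 were 14.88, 14.80, 14.95 and 15.02 on BV2 plates, 10.43, 10.26, 10.49 and 10.50 on the N18 plates and 10.71, 10.45, 11.05 and 10.56 on the plates labelled AtT20. BV2 stood apart from both, and the other 2 groups overlapped. Ccl3 was 22.5-fold higher in BV2 than in N18 cells (log2 difference 4.49, SE 0.13, adjusted p = 1.15e-13) and at least 7.6-fold higher than on the plates labelled AtT20 (4.22, SE 0.13, adjusted p = 1.78e-13). The call in N18 cells was marginal, with a level of 0.76 ± 0.12 (SD, n = 4) against a threshold of 0.74, and it came from probe 1, whose level there was 1.62, whereas probes 2 and 3 were at 0.28 and -0.37. The call was lost in several settings, among them the mean of log2 probes (0.53 against 0.74) and quantile normalization (0.47 against 0.52). The 22.5-fold difference is on the latter scale and therefore rests on an N18 value that was not above the threshold there. No bound was computed for it.

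Ccl4, the close relative of Ccl3 encoded beside it, was at 13.03, 13.10, 12.90 and 12.79 on BV2 plates, at 10.12, 10.10, 10.04 and 10.09 on the N18 plates and at 11.09, 11.26, 11.25 and 11.08 on the plates labelled AtT20. The 3 groups did not overlap. It was at least 2.3-fold higher in BV2 than in N18 cells (log2 difference 2.86, SE 0.10, adjusted p = 1.43e-12), although probe 1 was above the threshold in N18 cells (level 1.13). Against the plates labelled AtT20 the log2 difference was 1.78 (adjusted p = 2.25e-10), and it ranged from 1.29 with the median of the probes to 2.71 relative to the seminal proteins. Detection on the plates labelled AtT20 was marginal, with a level of 0.37 ± 0.16 (SD, n = 4) against a threshold that is also 0.37 after rounding, and it was lost without plate 2 (0.30 against 0.36) and after quantile normalization (0.81 against 0.91). Of its probes, probe 1 gave the largest difference from N18 cells, 3.34, and probes 2 and 3 gave 1.91 and 2.20.

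Ccl5, which attracts T cells, had values of 13.03, 12.77, 12.81 and 13.24 on BV2 plates, 10.18, 10.14, 10.09 and 10.30 on the N18 plates and 11.54, 11.81, 11.77 and 12.01 on the plates labelled AtT20. Again the groups did not overlap, with N18 lowest. The gene was at least 4.3-fold higher in BV2 than in N18 cells (log2 difference 2.78, SE 0.13, adjusted p = 3.57e-11), although probe 3 was above the threshold in N18 cells (level 1.09). Against the plates labelled AtT20 it was 2.3-fold higher (1.18, adjusted p = 5.29e-07), and the log2 difference was 0.94 without normalization, 2.16 with the median of the probes and 2.30 relative to the seminal proteins. The value on the plates labelled AtT20 came from a single probe. Probe 3 had a mean of 12.96 there and 11.32 in BV2 cells, so that BV2 was lower by 1.64 on this probe (difference -1.64), while on probes 1 and 2 BV2 was higher by 2.96 and 3.15 and the plates labelled AtT20 were below the threshold. The same probe also gave the smallest excess over N18 cells, 0.63 against 4.18 and 2.83. With the median of the probes Ccl5 was no longer above the threshold on the plates labelled AtT20 (level 0.21 against 0.35).

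**Figure D2:**
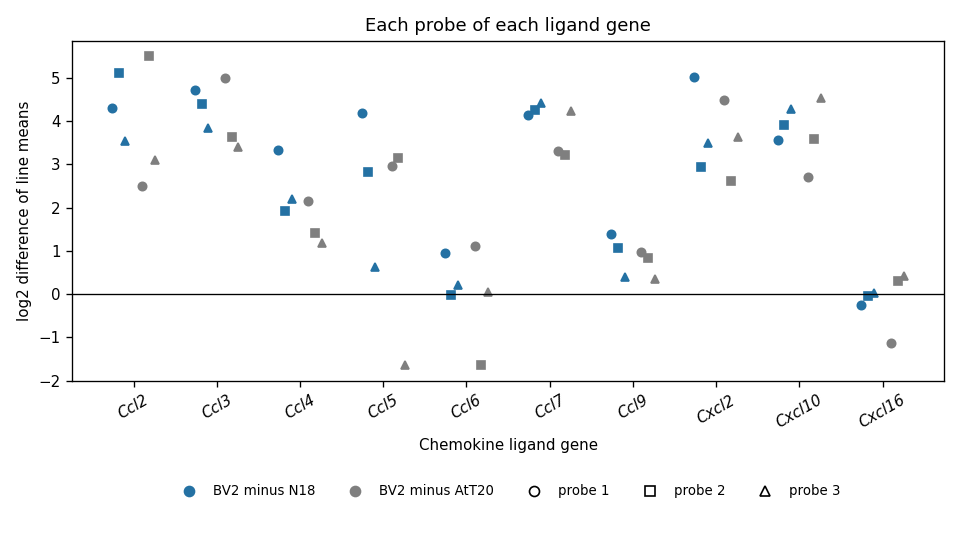
Difference of line means on the log2 scale (vertical axis) for each of the 3 probes of each ligand gene (marker shape), BV2 minus N18 in blue and BV2 minus the plates labelled AtT20 in gray. All 3 probes of Ccl2, Ccl3, Ccl4, Ccl7, Ccl9, Cxcl2 and Cxcl10 were above 0 in both comparisons, whereas probe 3 of Ccl5 and probe 2 of Ccl6 fell at -1.64 and -1.65 against the plates labelled AtT20.

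Across the 30 probes, the 4 BV2 plates were above the 4 N18 plates for 24 and above the plates labelled AtT20 for 22. The same share over all 72000 probes was not counted. Over all genes and targets it was 31.9% and 22.9%. No BV2 probe was at the upper limit of 16 of the deposited scale, and the highest deposited value of a ligand probe in BV2 cells was 15.66. The letters of the probes were not used here, so that cross-hybridization between related ligands was not tested.

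Ccl6 and Ccl9 are ligands of CCR1 that mouse myeloid cells commonly express without stimulation, and they gave the smallest differences among the ligands that passed the test against N18 cells. For Ccl6 the BV2 plates were at 10.93, 10.55, 10.72 and 11.04, the N18 plates at 10.35, 10.27, 10.37 and 10.49 and the plates labelled AtT20 at 11.07, 10.99, 11.17 and 11.51. BV2 lay above N18 by a narrow gap and overlapped the plates labelled AtT20. Ccl6 was higher in BV2 than in N18 cells by 0.44 (SE 0.13, adjusted p = 0.0122), and this call was lost without normalization (0.34, adjusted p = 0.178), relative to the seminal proteins (0.31, with adjusted p = 0.0929) and with the median of the probes (0.11, adjusted p = 0.678). It was the 1 ligand called lower in BV2 cells than on the plates labelled AtT20 (-0.38, adjusted p = 0.0156), with a direction that turned relative to the seminal proteins (0.54) and with the median of the probes (0.08). The call was lost without BV2 plate 2 (-0.29, adjusted p = 0.0645) and without AtT20 plate 4 (-0.27, adjusted p = 0.0554). Probe 1 alone was above the threshold in BV2 cells, where it exceeded N18 by 0.95 and the plates labelled AtT20 by 1.11, and probe 2 carried the opposite difference of -1.65 against the plates labelled AtT20.

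Ccl9 was measured at 10.72, 10.51, 10.32 and 10.73 on BV2 plates, at 9.65, 9.53, 9.51 and 9.66 on the N18 plates and at 9.88, 9.53, 9.95 and 10.01 on the plates labelled AtT20. The BV2 plates were above all the others. The difference was 0.98 from N18 cells (SE 0.12, adjusted p = 3.06e-06) and 0.73 from the plates labelled AtT20 (adjusted p = 2.87e-05), the latter turning to -0.52 without normalization. No fold is given, because Ccl9 was below the threshold in both other lines and its BV2 level, 0.62 ± 0.31 (SD, n = 4), was near the threshold of 0.56. Detection in BV2 cells was lost without plate 1 (0.53 against 0.56) and without plate 4 (0.54 against 0.57). All 3 probes were higher than in N18 cells, by 1.38, 1.06 and 0.40.

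Cxcl2 attracts neutrophils through CXCR2. It was at 14.51, 14.25, 14.43 and 14.41 on BV2 plates, at 9.96, 9.97, 9.95 and 10.06 on the N18 plates and at 10.17, 10.54, 10.42 and 10.20 on the plates labelled AtT20. The groups did not overlap, and the gene was below the threshold in both dim lines, with levels of 0.12 in N18 cells and -0.03 on the plates labelled AtT20 against 4.52 ± 0.39 in BV2 cells (SD, n = 4), although 1 of its probes, probe 1, was above it in N18 cells (0.92). Cxcl2 was at least 5.8-fold higher than in N18 cells (log2 difference 4.41, SE 0.11, adjusted p = 3.09e-14) and at least 3.1-fold higher than on the plates labelled AtT20 (4.07, adjusted p = 5.75e-14). Its 3 probes exceeded N18 by 5.02, 2.93 and 3.49, and their median by 3.49. Its neighbour on chromosome 5, Cxcl1, a neutrophil chemoattractant that shares the receptor and was chosen after its values were seen, was below the threshold in BV2 cells (level -0.35) and above it in N18 cells (0.97 ± 0.24, SD, n = 4), with BV2 lower by 0.84 on the log2 scale (difference -0.84, adjusted p = 2.43e-06).

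Cxcl10 is induced by interferons and attracts T cells through CXCR3. The BV2 plates were at 14.13, 14.47, 14.01 and 14.04, the N18 plates at 10.17, 10.16, 10.21 and 10.19 and the plates labelled AtT20 at 10.52, 10.34, 10.65 and 10.62. No groups overlapped, and the level of 4.27 ± 0.32 in BV2 cells (SD, n = 4) stood against levels of 0.34 and 0.06 below the threshold in N18 cells and on the plates labelled AtT20. The gene was at least 11.2-fold higher in BV2 than in N18 cells (log2 difference 3.98, SE 0.12, adjusted p = 1.71e-13) and at least 5.6-fold higher than on the plates labelled AtT20 (3.63, adjusted p = 3.22e-13). Its probes gave differences from N18 of 3.56, 3.90 and 4.27.

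Cxcl16 is made as a membrane-anchored ligand of CXCR6 and is released by the proteases ADAM10 and ADAM17. The values were 10.91, 10.63, 11.07 and 10.91 on BV2 plates, 11.02, 10.85, 10.84 and 11.10 on the N18 plates and 11.16, 10.96, 10.75 and 11.06 on the plates labelled AtT20, and the 3 groups overlapped. Neither difference of BV2 passed the test, with -0.07 from N18 cells (95% interval -0.33 to 0.19, adjusted p = 0.684) and -0.10 from the plates labelled AtT20 (-0.36 to 0.15, adjusted p = 0.443). These intervals hold for quantile normalization, because Cxcl16 was called lower in BV2 than in N18 cells relative to the seminal proteins (-0.52, with adjusted p = 0.00627) and without normalization (-0.49, with adjusted p = 0.0427). Against the plates labelled AtT20 it was called lower without normalization (-0.65) and with the median of the probes (-0.68), and higher relative to the seminal proteins (0.71). By level it was above the threshold in N18 cells (1.5 ± 0.2) and BV2 cells (0.98 ± 0.31) and below it on the plates labelled AtT20 (0.27 ± 0.12, SD, n = 4), where 2 of its 3 probes were just above it (0.40 and 0.42). Adam10 was above the threshold in all 3 lines, with levels of 3.54 ± 0.46, 3.49 ± 0.24 and 3.69 ± 0.65 in BV2 cells, N18 cells and on the plates labelled AtT20, and Adam17 in BV2 (2.4 ± 0.21) and N18 cells (1.88 ± 0.11) but not on the plates labelled AtT20 (-0.12). After quantile normalization Adam10 in BV2 cells differed by 0.73 from N18 cells (adjusted p = 2.45e-05) and by -1.13 from the plates labelled AtT20 (adjusted p = 5.41e-08).

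**Figure D3:**
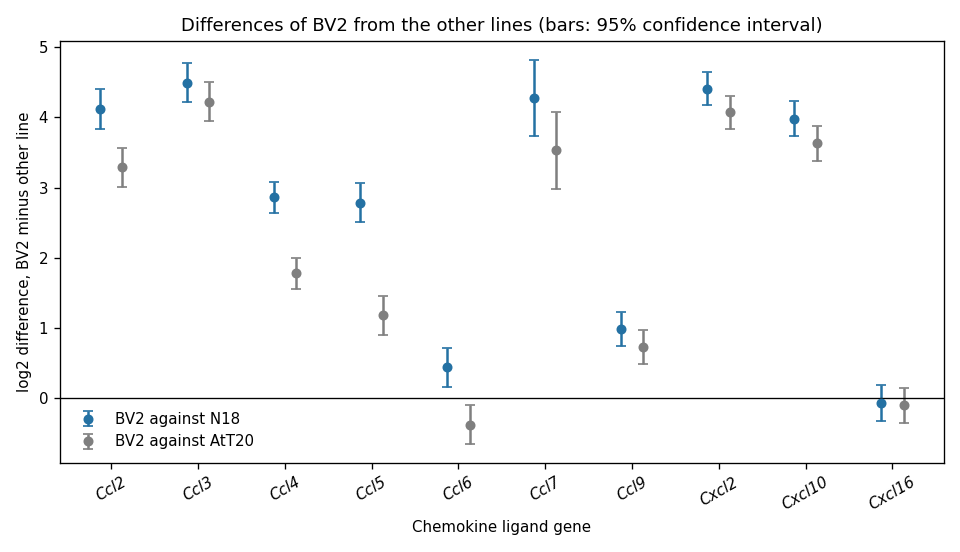
Log2 difference of BV2 from N18 (blue) and from the plates labelled AtT20 (gray) for each ligand gene after quantile normalization, with 95% confidence intervals as bars (4 plates per line). The 7 ligands that were higher by over 1 in both comparisons lie between 1.18 and 4.49, and the intervals of Cxcl16 include 0.

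In the cluster on chromosome 11, genes with small differences lay between genes with large ones. From Ccl5 through Ccl9, Ccl6 and Ccl3 to Ccl4, BV2 exceeded N18 by 2.78, 0.98, 0.44, 4.49 and 2.86. The neighbours Ccl2 and Ccl7 differed by 4.12 and 4.28.

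N18 cells and the plates labelled AtT20 were compared with each other as lines without microglial origin. After quantile normalization none of the 10 ligands was higher in N18 cells (27.8% of all genes were) and 7 were lower (48.6%), with a median of -0.55 against -0.25 for all genes, whereas relative to the seminal proteins 3 were higher and 1 was lower. Those 7 did not overlap between the groups, as was so for 43.3% of all genes. Ccl5 (-1.61, adjusted p = 1.08e-08) and Ccl4 (-1.08, adjusted p = 8.56e-08) differed most on this scale, and both calls were lost relative to the seminal proteins, where Ccl5 was at -0.45 (adjusted p = 0.0709) and Ccl4 at -0.10 (adjusted p = 0.591). For Ccl5, probe 3 was the only probe above the threshold on the plates labelled AtT20. This comparison depended on the scaling. The 3 that were higher relative to the seminal proteins were Ccl2 by 0.92, Ccl3 by 0.65 and Cxcl16 by 1.23, and on that scale the median over all genes moved from -0.25 to 0.54, whereas without normalization it was -0.85. For BV2 against the plates labelled AtT20 the same medians were -0.23, 0.28 and -1.08, and for BV2 against N18 they were 0.06, -0.18 and -0.15.

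**Figure D4:**
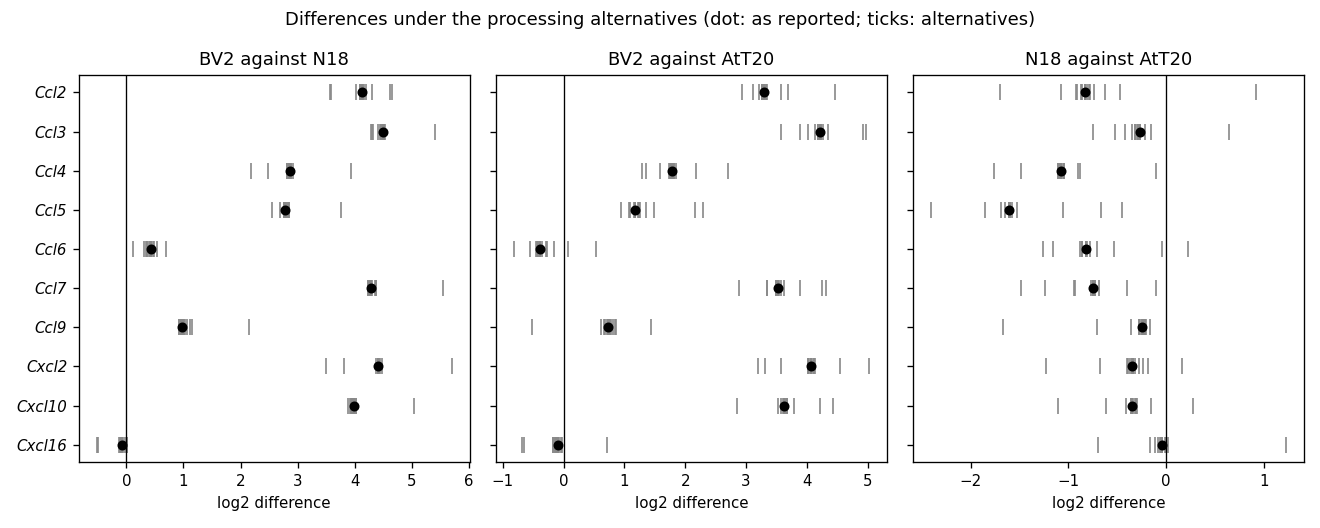
Log2 differences of the 10 ligands in the 3 comparisons of lines, as reported (dot) and under each alternative processing (ticks). For Ccl2, Ccl3, Ccl4, Ccl5, Ccl7, Cxcl2 and Cxcl10 every tick in both BV2 comparisons lies above 0, the lowest being 0.94 for Ccl5 against the plates labelled AtT20, whereas N18 against the plates labelled AtT20 has ticks on both sides of 0 for 6 ligands.

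Of 6 receptors of the ligands examined here 2 were above the threshold in BV2 cells, 1 in N18 cells and 2 on the plates labelled AtT20, where 53.3%, 55.4% and 35.0% of all genes were. In BV2 cells 2 were higher and none was lower than in N18 cells, with backgrounds of 21.9% and 19.0% of all genes. Against the plates labelled AtT20 1 was higher and 3 were lower, with backgrounds of 26.6% and 47.0%. Cxcr2, the receptor of Cxcl2, was just above the threshold in BV2 cells (0.63 ± 0.08) and 0.36 higher than in N18 cells (adjusted p = 0.0261). Cxcr3, the receptor of Cxcl10, was 0.60 higher than in N18 cells (adjusted p = 7.86e-05). Its BV2 level of 0.56 ± 0.11 was not above the threshold, which is also 0.56 after rounding. The authors, with a threshold of the same kind, reported Cxcr3 as expressed in BV2 cells. Ccr1, the receptor of Ccl3, Ccl5, Ccl6 and Ccl9, was below the threshold in all 3 lines and did not pass the test against N18 cells (adjusted p = 0.0833). Ccr2, which binds Ccl2 and Ccl7, was at a level of 0.00 ± 0.06 in BV2 cells (SD, n = 4), with a difference from N18 of 0.01 (95% interval -0.26 to 0.27, adjusted p = 0.973). Cxcr6, the receptor of Cxcl16, was likewise below the threshold in each line (adjusted p = 0.0668 against N18). Ccr3, which binds Ccl5 and Ccl7, was above it in all 3, at 0.83, 0.92 and 0.81 in BV2 cells, N18 cells and on the plates labelled AtT20 (adjusted p = 0.106 for BV2 against N18). After quantile normalization the 3 that were lower than on those plates were Ccr3 (-1.01, adjusted p = 9.95e-07), Cxcr2 (-0.63, adjusted p = 0.000207) and Ccr1 (-0.40, adjusted p = 0.000533). The 1 that was higher was Cxcr3 (0.27, adjusted p = 0.0166).

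**Figure D5:**
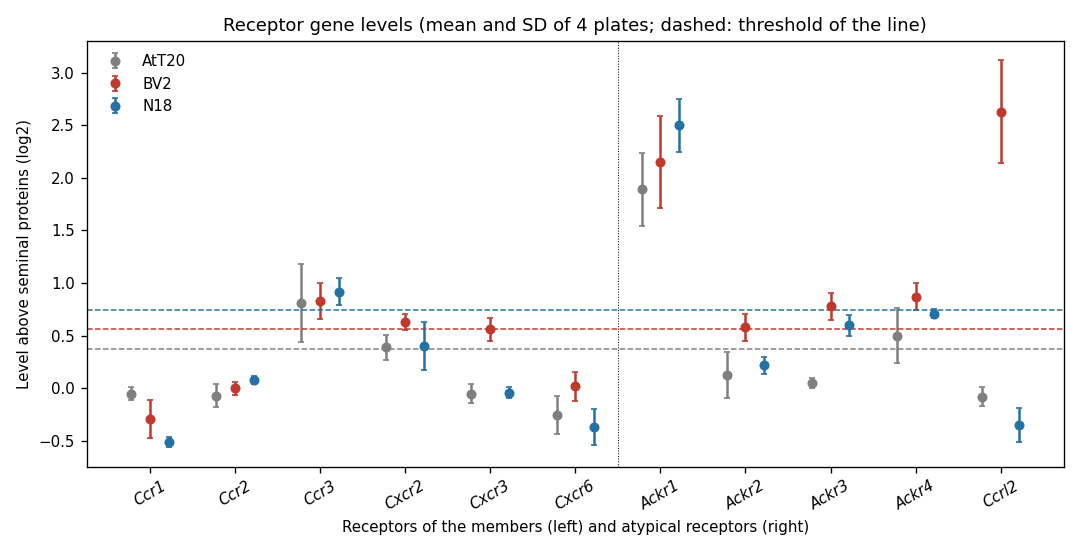
Level above the seminal proteins on the log2 scale (mean and SD of 4 plates) for 6 receptors of the ligands and, right of the dotted line, the atypical receptors, with each line's detection threshold dashed in its color. Ccrl2 is at 2.63 in BV2 cells and below the threshold in both other lines, whereas Ackr1 is above the threshold in all 3 lines.

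The atypical receptors bind chemokines without G protein signaling and take them up or display them. All 5 were above the threshold in BV2 cells, 1 in N18 cells and 2 on the plates labelled AtT20. Over all genes it was 53.3%, 55.4% and 35.0%. In BV2 cells 3 were higher and none was lower than in N18 cells, and 1 was higher and 2 were lower than on the plates labelled AtT20. Of all genes, 21.9% were higher and 19.0% lower than in N18 cells. Against those plates these shares were 26.6% and 47.0%. Ccrl2, which binds chemerin and is induced in activated myeloid cells, had a level of 2.63 ± 0.49 in BV2 cells (SD, n = 4) and was 2.70 higher than in N18 cells (adjusted p = 3.51e-11), where it was at -0.35. Ackr3, which scavenges Cxcl12, and Ackr2, which scavenges inflammatory CC ligands, were higher by 0.41 and 0.43 (adjusted p = 0.00219 and 0.0401). Ackr4 had a BV2 level of 0.87 ± 0.13 and a difference of 0.39 (adjusted p = 0.0516). Ackr1 was at 2.15, 2.50 and 1.89 in BV2 cells, N18 cells and on the plates labelled AtT20, with a difference of 0.21 from N18 (95% interval -0.17 to 0.60, adjusted p = 0.383). The 2 that were lower than on the plates labelled AtT20 were Ackr1 (-0.89, adjusted p = 0.000366) and Ackr4 (-0.61, adjusted p = 0.00203). Of the 11 other chemokine receptors 2 were higher than in N18 cells, Cxcr4 by 1.2 (adjusted p = 1.44e-06) and Ccr8 by 0.39 (adjusted p = 0.00511), and none was lower, whereas 2 were higher and 4 lower than on the plates labelled AtT20.

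Among 25 other chemokine ligands, 7 were higher and 2 lower in BV2 than in N18 cells, and their median difference was 0.16. The share that was higher is near the 21.9% of all genes, and 19.0% of all genes were lower. Of the 25, 7 were higher and 13 lower than on the plates labelled AtT20, where 26.6% and 47.0% of all genes were. The 3 with the largest differences were Cxcl3, a neutrophil attractant of the Cxcl2 type (level 3.55 ± 0.46 in BV2 cells, difference 3.84, adjusted p = 7.21e-14), Cxcl14 (3.40 ± 0.46, difference 2.80, adjusted p = 1.54e-11) and the platelet factor Pf4 (2.00 ± 0.35, difference 1.90, adjusted p = 1.35e-08). All 3 were below the threshold in both other lines. Of the 25, 8 were above the threshold in BV2 cells, 6 in N18 cells and 1 on the plates labelled AtT20. Over all genes it was 53.3%, 55.4% and 35.0%.

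The genes that act before and after the ligands were counted against both lines, and differences for single genes are from N18 unless said otherwise. Of all genes, 21.9% were higher and 19.0% lower in BV2 than in N18 cells. Against the plates labelled AtT20 these shares were 26.6% and 47.0%. Of 17 transcriptional regulators of chemokine genes 13 were higher and none was lower in BV2 than in N18 cells, led by Irf7, an interferon regulatory factor (level 3.87 ± 0.42, difference 3.70, adjusted p = 2.18e-13), and followed by the NF-kB subunit Nfkb1 (3.29 ± 0.19, difference 2.07, adjusted p = 9.82e-10) and its inhibitor Nfkbia (3.73 ± 0.34, difference 1.54, adjusted p = 6.07e-08). Of the same 17, 10 were higher and 4 lower than on the plates labelled AtT20. Of 9 cytokines that are induced with chemokines 7 were higher and 1 was lower, and Il1a, Il1b and Il6 exceeded N18 by 2.68, 2.28 and 1.73 (adjusted p = 4.85e-11, 5.16e-12 and 7.56e-09). These 3 were below the threshold in both other lines, and against the plates labelled AtT20 5 of the 9 were higher and 4 lower. Of 6 factors that control the decay of such messages 4 were higher and 1 was lower, with Zfp36, which binds AU-rich elements, at 2.33, Zfp36l1 at 2.28 and the nuclease gene Zc3h12a at 1.64 (adjusted p = 1.13e-10, 2.02e-09 and 4.40e-09). Of the 6, 4 were higher and 2 lower than on the plates labelled AtT20, Zfp36l1 being lower there (-0.59, adjusted p = 0.00188). Downstream of the receptors 4 of 8 signaling genes were higher and 1 was lower, with the same counts against the plates labelled AtT20. Pik3cg, a kinase activated by G protein βγ subunits in leukocytes, was 1.99 higher (adjusted p = 6.30e-10), Arrb2 1.76 (adjusted p = 6.70e-09) and Plcb2 0.81 (adjusted p = 6.21e-05), whereas Arrb2 did not pass the test against the plates labelled AtT20 (-0.09, adjusted p = 0.501).

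The genes outside these lists whose values over the 12 arrays were most like the mean of the 10 ligands were Syk, a tyrosine kinase of immune receptors (Pearson r = 0.9978), Slc6a12, a betaine and GABA transporter (0.9977), the adaptor Dab2 (0.9969), Srgn, the core protein of a granule proteoglycan (0.9963), and the adaptor Fyb (0.9963). Their means were 14.08, 13.32, 14.38, 14.63 and 14.59 in BV2 cells and 10.60, 10.49, 10.31, 9.81 and 9.77 in N18 cells on the log2 scale after quantile normalization. On the plates labelled AtT20 they were 11.49, 11.19, 11.28, 10.57 and 11.10. Among the 10 ligands themselves, Ccl6 (r = 0.25) and Cxcl16 (r = -0.26) did not follow the mean of the 10. The other ligands had r of 0.92 or more. The 12 arrays come from 3 lines, and these values of r therefore mainly describe the contrast of BV2 with the other lines.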

How the data were processed

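RNA from 12 plates of 3 mouse cell lines, 4 per line, was labelled with Cy3 and hybridized to NimbleGen arrays with 72000 probes of the MM8 design. The deposited values are log2 intensities, which the authors made from the probe signals of each array. The methods describe no normalization between arrays. Samples were grouped by their titles. Probes were grouped into 25631 targets by transcript accession, 69.4% of which matched a gene symbol, and the linear mean of the probes was taken. The number of arrays limits the precision.

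Detection used 10 seminal proteins as background, with a threshold of 2 SD. Differences between lines were tested after quantile normalization in R 4.3.3, using lmFit and eBayes with trend from limma 3.58.1 on all 12 arrays, with Benjamini-Hochberg adjustment over all 25128 genes and targets. On simulated data with 200 changed genes, the comparison of BV2 with N18 recovered 95% of changes of 1 and 36% of changes of 0.5 on the log2 scale. The simulated arrays had independent normal noise and no normalization step. In the real data 21.9% of all genes were called higher and 19.0% lower, so that these rates need not apply there. Tables and figures were made with Python 3.11.15. Named genes are the 10 ligands, 6 of their receptors, the atypical receptors, the sheddases of Cxcl16 and, from each other list, the 3 genes with the largest difference of BV2 from N18 past the test, plus the 5 genes most like the ligands. Results for some single genes are left out here. The ligands, lists and tests were chosen with earlier results of these data known. Promoters were searched for 5 motifs in windows of 250 bases. Alternatives were other scalings, a normexp correction (offset 50), other summaries of probes, other controls and thresholds, a filter on dim genes, only the 8 arrays of a pair, a replicate block, and leaving out each plate.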

Additional observations from a re-analysis of the deposited data

Results flagged for a closer look

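Among the 30 sets of 4 plates tested (10 ligands in 3 lines), 2 held a plate whose gap to its nearest neighbour took up more of the range of the set than Dixon's 95% limit for 4 samples allows, which chance alone exceeds in about 5% of sets. Ccl7 was lowest on BV2 plate 3, at 13.96 on the quantile-normalized log2 scale, with the other BV2 plates between 14.35 and 14.36 (gap over range 0.97). Cxcl2 was highest on N18 plate 4, at 10.06, with the next plate at 9.97 and the lowest at 9.95 (gap over range 0.84). In both cases the calls of BV2 against the other lines were kept when any 1 plate was left out.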

How the results depend on the processing

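For Ccl2, Ccl3, Ccl4, Ccl5, Ccl7, Cxcl2 and Cxcl10 all 16 alternatives kept the direction and the call of both BV2 comparisons, with differences from N18 between 2.18 (Ccl4) and 5.70 (Cxcl2). The cause of the changes below was not tested. On the plates labelled AtT20 the ligands above the threshold numbered 2 in place of 4 with olfactory receptor genes as controls, 3 SD, all 4 plates required, quantile normalization, and the median of probes or the mean of their log2 values, and in N18 cells 1 in place of 3 with the median. Leaving out 1 plate gave 9 to 10 in BV2 cells, 2 to 3 in N18 cells and 2 to 4 on the plates labelled AtT20, the 2 without plate 2. Olfactory receptor genes as controls left 7 in BV2 cells, without Ccl6, Ccl9 and Cxcl16.

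Without normalization and relative to the seminal proteins 1 ligand (Cxcl16) was lower in BV2 than in N18 cells in place of 0. Ligands lower in BV2 cells than on the plates labelled AtT20 numbered 3 without normalization and 0 with probes averaged as log2, at a difference of at least 1 and relative to the seminal proteins, in place of 1. The direction turned relative to the seminal proteins for Ccl6 (0.54) and Cxcl16 (0.71), with the median for Ccl6 (0.08) and without normalization for Ccl9 (-0.52). For N18 against the plates labelled AtT20, levels relative to the seminal proteins gave 3 higher and 1 lower in place of 0 and 7, and turned Ccl2 (0.92), Ccl3 (0.65), Ccl6 (0.23), Cxcl2 (0.16), Cxcl10 (0.28) and Cxcl16 (1.23). With only genes above the threshold 4 were lower, and at least 1 apart 2. Leaving out 1 plate kept 9 higher and 0 lower for BV2 against N18, and 8 higher and 0 to 1 lower for BV2 against the plates labelled AtT20 (0 without BV2 plate 2 or AtT20 plate 4). For N18 against the plates labelled AtT20 it gave 0 higher and 7 to 9 lower.

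Deviations of plates with the same number had correlations of -0.11 to 0.32. The highest was that of plate 2 of BV2 and N18 cells, and the others were at most 0.14. Of 12 plates, 4 correlated best with their own number. With the replicate number as a block, 9 ligands were higher and 0 lower in BV2 than in N18 cells, 8 and 1 against the plates labelled AtT20, and for N18 against those plates 0 and 8, Ccl9 being added (-0.25, adjusted p = 0.0381). The block changed no other call.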
